A study of Homo sapiens with 9 samples.

Results

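Aminoacyl-tRNA synthetases are the enzymes that join each amino acid to its matching transfer RNA, the step that sets the genetic code before the ribosome reads it. The synthetase genes were taken from the count table by symbol. Of 19969 gene symbols, 36 were analysed, 20 for cytosolic enzymes and 16 for mitochondrial enzymes (symbols ending in ARS2). The table gives the cytosolic genes under older names without a final 1, so that TARS stands for TARS1. GARS and KARS were counted as cytosolic, although each supplies both compartments from a single gene. EPRS encodes a fused glutamyl and prolyl enzyme, and FARSA and FARSB encode the subunits of the cytosolic phenylalanyl enzyme.

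Human cells use separate sets for the cytosol and for the mitochondrial matrix, both encoded in the nucleus, and the mitochondrial enzymes are imported. Many cytosolic synthetase genes are known targets of ATF4, a transcription factor that is translated when amino acids run short, and several cytosolic enzymes sit together in the multisynthetase complex.

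The libraries came from HEK293T cells, a human embryonic kidney line, after removal of ribosomal RNA. In 6 libraries the labels name FHY1-M3 together with a guide, which was the ACTB, con or non-target sgRNA in 2 libraries each, and the other 3 libraries are labelled input. In the count table the con columns are named con_ACTB_sgRNA, so it is not known whether the ACTB guide was also present there. Left unsaid are the kind of RNA in the FHY1-M3 libraries (total or immunoprecipitated), the light given to the cultures and the construct, if any, in the inputs. The series is about editing of the RNA mark m6A under red and far-red light, and a plant protein called FHY1 binds the light receptor phytochrome A. In bulk RNA a higher value is a larger share of the reads, and fewer transcripts per cell cannot be told apart from fewer cells that make them. No label says that the replicates are separate cultures, and p-values therefore reflect only how far these libraries differ, which may be technical.

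Total counts ran from 2900021 to 3802681 in the FHY1-M3 libraries and from 350413 to 643954 in the inputs. The inputs are the shallower libraries, and the mitochondrial members are the rarer ones. Over the 3 inputs a cytosolic member had between 80 and 1116 counts (median 263) and a mitochondrial member between 6 and 214 (median 58). Of the values from 1 to 20, 88.5% to 95% were even, as when each mate of a pair adds 1 count. Mitochondrially encoded mRNAs took 0.563% to 0.639% of the counts in the FHY1-M3 libraries, against 7.52% to 7.80% in the inputs. Histone genes took 0.132% to 0.149% in the FHY1-M3 libraries, against 0.797% to 0.938% in the inputs. VIM, which HEK293T cells express, was found in all 9 libraries, as were KRT8 and KRT18. The lymphocyte genes CD3E and PTPRC were at 0 in all 9. ALB, looked up beside them, was at 2.08 and 2.10 CPM (counts scaled to a common TMM library size) in the con sgRNA libraries. ALB was at 4.10 CPM in non-target sgRNA replicate 2 and at 0 in the other libraries.

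The promoters of the cytosolic class are shown first, since several of them hold a known regulatory motif. The letters TGATGNAAN are the core of the element, often called CARE, that ATF4 binds with C/EBP partners. They were searched on both strands in RefSeq promoter windows of GRCh38.p14, each running from 250 bases before to 50 bases after an annotated start. Windows were found for 30 of the 36 members, 16 cytosolic and 14 mitochondrial, and a gene counted as holding the motif if any of its windows did. It stood in 7 of 16 cytosolic genes (43.8%) and in 1 of 14 mitochondrial genes (7.14%), against 4.45% of all 27305 genes with a window. Below, each match is in capitals with 20 bases on either side, read 5′ to 3′ along the gene's own strand. The matches of NARS and YARS2 lie on the gene's strand and the other 6 on the opposite strand.
TARS (chr5:33440946-33440994, + strand): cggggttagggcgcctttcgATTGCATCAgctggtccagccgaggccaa
CARS (chr11:3057398-3057446, - strand): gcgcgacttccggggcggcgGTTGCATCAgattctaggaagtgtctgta
MARS (chr12:57488043-57488091, + strand): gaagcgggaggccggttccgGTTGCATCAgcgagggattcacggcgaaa
NARS (chr18:57621794-57621842, - strand): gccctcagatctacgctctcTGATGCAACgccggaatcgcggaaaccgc
AARS (chr16:70289666-70289714, - strand): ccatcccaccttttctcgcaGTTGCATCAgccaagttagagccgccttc
GARS (chr7:30594824-30594872, + strand): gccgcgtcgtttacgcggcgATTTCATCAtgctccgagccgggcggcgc
IARS (chr9:92293683-92293731, - strand): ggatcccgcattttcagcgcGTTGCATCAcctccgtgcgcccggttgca
YARS2 (chr12:32756066-32756114, - strand): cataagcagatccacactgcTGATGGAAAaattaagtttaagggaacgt

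Positions count from the annotated start that defines each window, with that base as 1 and the base before it as -1. The match began at -34 in GARS, -14 in IARS, -5 in MARS and -3 in CARS. It began at 2 in TARS, at 15 in NARS and at -188 in AARS. Of these 7 cytosolic matches, 6 therefore began within 34 bases of an annotated start. For TARS and GARS this start lay inside the gene, downstream of its first annotated base. The 6 other than GARS share the letters TTGCATCA, read on the opposite strand in NARS, while GARS has TTTCATCA. The window of TARS is given whole, since TARS had the smallest adjusted p among the members.
TARS (chr5:33440715-33441014, + strand): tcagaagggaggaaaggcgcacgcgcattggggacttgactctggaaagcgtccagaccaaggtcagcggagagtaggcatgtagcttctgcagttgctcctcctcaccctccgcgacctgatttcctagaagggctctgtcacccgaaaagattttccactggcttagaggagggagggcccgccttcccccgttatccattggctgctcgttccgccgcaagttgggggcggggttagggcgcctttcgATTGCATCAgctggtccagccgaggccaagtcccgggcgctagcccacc

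A pair of other motifs was searched in the same windows. The NRF1 motif (GCGCA, then any base, then GCGC, on either strand), bound by a regulator of many nuclear genes for mitochondrial proteins, stood in 3 of 16 cytosolic genes (18.8%) and 3 of 14 mitochondrial genes (21.4%), against 6.98% of all genes. Its holders were SARS, FARSB and TARS, and PARS2, IARS2 and MARS2. The E-box CACGTG, read by MYC and related factors, stood in 1 cytosolic gene, IARS, and in 3 mitochondrial genes, MARS2, CARS2 and EARS2, against 8.77% of all genes. In no window did matches to different motifs overlap. These matches describe letters in a window and do not show that a factor bound there.

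The FHY1-M3 libraries together were compared with the inputs. Of the 20 cytosolic synthetase genes, 10 rose, 0 fell and 10 did not pass the test. The 10 that rose had folds between 1.24 (YARS) and 1.84 (DARS). They included the threonyl, lysyl, aspartyl, cysteinyl, methionyl and asparaginyl enzymes. Of the 16 mitochondrial genes, 4 rose (PARS2, AARS2, TARS2 and RARS2), 0 fell and 12 did not pass. Among all 13411 genes tested, 11.4% were higher and 8.6% were lower by the same edgeR quasi-likelihood test with a Benjamini-Hochberg adjusted p under 0.05. Calls are easier for abundant genes, and every cytosolic member averaged at least 50 CPM, counts scaled to a common TMM library size. Of the 5282 genes at that level 21.5% were higher and 12.4% lower, beside 10 of 20 cytosolic members higher, and 3 higher and 0 lower of the 7 mitochondrial members at that level. At an unadjusted p under 0.05 the counts were 11 of 20 and 5 of 16, beside 31.9% of all genes. Every FHY1-M3 library lay above every input for 9 of 20 cytosolic and 4 of 16 mitochondrial members, beside 14.9% of all genes. Every FHY1-M3 library lay below every input for 0 members, beside 8.51%. The 4 mitochondrial members were AARS2, TARS2, RARS2 and YARS2. YARS2 was not called, while PARS2 was called with overlapping libraries. The median log2 fold change was 0.34 for the cytosolic class and 0.43 for the mitochondrial class, against 0.04 for all genes tested. Both lie inside the middle 50% of all genes, which ran from -0.56 to 0.62 and was not matched for level. With mitochondrially encoded and histone genes removed, 9 cytosolic and 3 mitochondrial members were higher, 0 were lower and the medians were 0.33 and 0.42. GARS and RARS2 then missed the threshold (adjusted p = 0.0529 and 0.0539). The estimates of the mitochondrial class were the more spread. The cytosolic estimates lay between -0.20 and 0.88 with a median standard error (SE) of 0.17, and the mitochondrial ones between -2.05 and 1.75 with a median SE of 0.36.

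**Figure D1:**
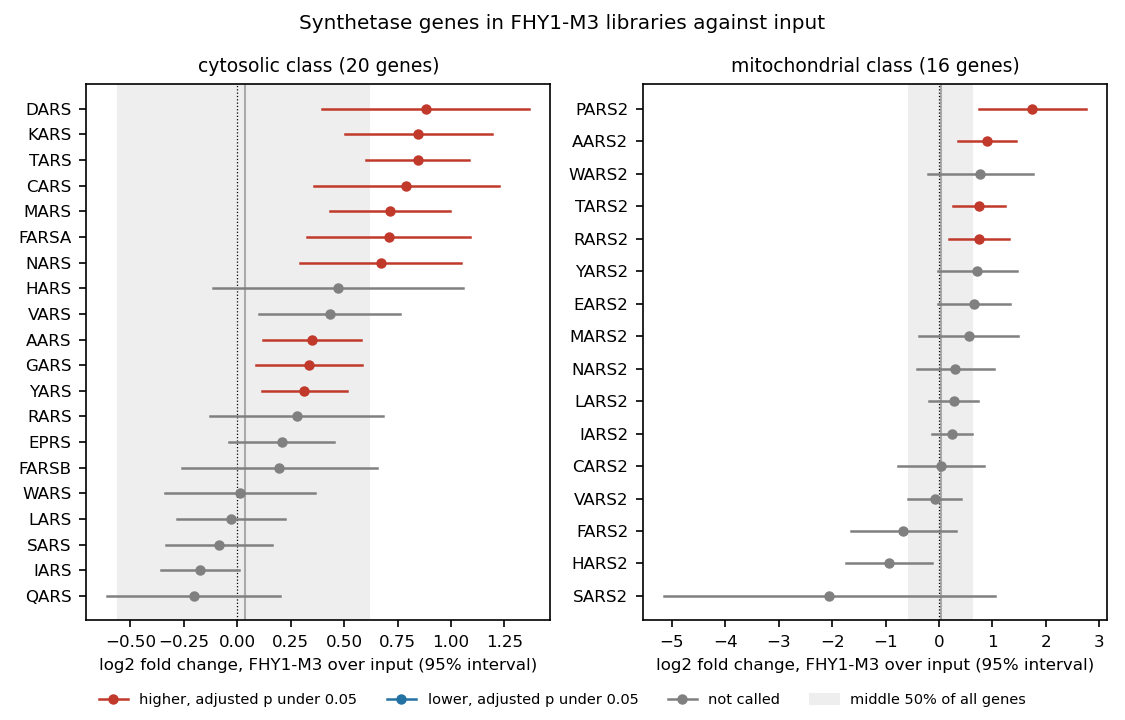
Log2 fold change of each synthetase gene, FHY1-M3 libraries (n = 6) over input (n = 3), with 95% intervals from the edgeR fit, for the cytosolic genes (left) and the mitochondrial genes (right), on different horizontal scales. Colour marks the call, the grey band holds the middle 50% of all 13411 genes and the grey line their median of 0.04. The 10 called cytosolic genes are all higher, while the mitochondrial panel has 4 called genes, also higher.

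The cytosolic enzymes outside the multisynthetase complex are given first. TARS, the threonyl-tRNA synthetase, stood at 556 to 676 CPM (median 582) in the 6 FHY1-M3 libraries, and at 278, 382 and 335 CPM in the inputs. The groups did not overlap, and the log2 fold change was 0.85 (SE 0.12, adjusted p = 1.67e-06). CARS, the cysteinyl enzyme, stood at 154 to 212 CPM (median 172) in the FHY1-M3 libraries, and at 57.8, 146 and 91.5 CPM in the inputs. Every FHY1-M3 library was above every input, although input replicate 2 came close, and the log2 fold change was 0.79 (SE 0.21, adjusted p = 0.00701). NARS, the asparaginyl enzyme, stood at 164 to 241 CPM (median 214) in the FHY1-M3 libraries, and at 80.9, 158 and 146 CPM in the inputs. The gap was narrow, with a log2 fold change of 0.67 (SE 0.19, adjusted p = 0.00829). CARS and NARS lost their calls without input replicate 1, the lowest input for both (adjusted p = 0.0568 and 0.0673).

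FARSA, the catalytic alpha subunit of the phenylalanyl enzyme, stood at 168 to 217 CPM (median 197) in the FHY1-M3 libraries, and at 75.2, 137 and 141 CPM in the inputs. The groups did not overlap and the log2 fold change was 0.71 (SE 0.19, adjusted p = 0.00634). FARSB, which encodes the beta subunit of the same enzyme, was not called, at 0.20 (SE 0.22), and its interval from -0.26 to 0.65 overlaps the FARSA interval of 0.33 to 1.09. Smaller rises were called for AARS, GARS and YARS. AARS, the alanyl enzyme, stood at 465 to 604 CPM (median 532) in the FHY1-M3 libraries, and at 353, 468 and 423 CPM in the inputs. Its ranges met at con sgRNA replicate 1 and input replicate 2, and the log2 fold change was 0.35 (SE 0.11, adjusted p = 0.0250). GARS, the glycyl enzyme of both compartments, was at 0.34 (SE 0.12, adjusted p = 0.0463), and YARS, the tyrosyl enzyme, at 0.31 (SE 0.10, adjusted p = 0.0191). These 3 small rises were the least stable of the 10, with GARS called in 5, AARS in 11 and YARS in 12 of 19 alternative settings. YARS shares 797 bases with S100PBP, which fell, so reads from the overlap cannot be assigned without a stated strand setting.

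The valyl enzyme gene VARS lay just past the threshold at 0.43 (SE 0.16, adjusted p = 0.0569), with every FHY1-M3 library above every input. HARS, the histidyl enzyme, was at 0.47 (SE 0.29). SARS, the seryl enzyme, was at -0.08 (SE 0.12), and WARS, the tryptophanyl enzyme that interferon gamma induces, at 0.01 (SE 0.17). The WARS interval of -0.34 to 0.36 leaves room for a change of about the size called for AARS.

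Of the 8 enzymes of the multisynthetase complex 3 rose, and the median of the 8 was 0.24. Of the 12 enzymes outside it 7 rose, with a median of 0.39. Among all genes 11.4% were higher, and 21.5% of those averaging at least 50 CPM. The difference between the groups was not tested. KARS, the lysyl enzyme, stood at 238 to 328 CPM (median 254) in the FHY1-M3 libraries, and at 127, 182 and 120 CPM in the inputs. The groups did not overlap, and the log2 fold change was 0.85 (SE 0.17, adjusted p = 0.000343). MARS, the methionyl enzyme, stood at 368 to 440 CPM (median 394) in the FHY1-M3 libraries, and at 223, 306 and 191 CPM in the inputs, again without overlap. Its log2 fold change was 0.71 (SE 0.14, adjusted p = 0.000236). MARS shares 65 bases at its end with DDIT3, which ranged over 29.4 to 45.7 CPM with FHY1-M3 and was at 0, 45.5 and 26.1 CPM in the inputs. DARS, the aspartyl enzyme, stood at 123 to 161 CPM (median 148) in the FHY1-M3 libraries, and at 124, 48.8 and 70.6 CPM in the inputs. Input replicate 1 reached the FHY1-M3 range, and the log2 fold change of 0.88 (SE 0.24, adjusted p = 0.00718) was 0.56 and not called without input replicate 2 (adjusted p = 0.114).

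The other 5 enzymes of the complex did not pass. IARS, the isoleucyl enzyme, stood at 671 to 823 CPM (median 731) in the FHY1-M3 libraries, and at 844, 848 and 789 CPM in the inputs. Its estimate of -0.17 (SE 0.09, adjusted p = 0.180) is the most precise of all members, with an interval from -0.35 to 0.01. It was called lower under median-ratio factors, with a minimum mean of 10 CPM and in DESeq2 (adjusted p = 0.0388, 0.0337 and 0.0176). QARS, the glutaminyl enzyme, was at -0.20 (SE 0.20), with inputs spread from 86.7 to 276 CPM. Without input replicate 1 QARS fell (log2 -0.53, adjusted p = 0.0181), and without input replicate 2 its estimate was 0.16. LARS, the leucyl enzyme and a sensor of leucine for mTORC1, was at -0.03 (SE 0.12), EPRS at 0.21 (SE 0.12) and RARS, the arginyl enzyme, at 0.28 (SE 0.20). EPRS was called higher without input replicate 3 (adjusted p = 0.0266).

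**Figure D2:**
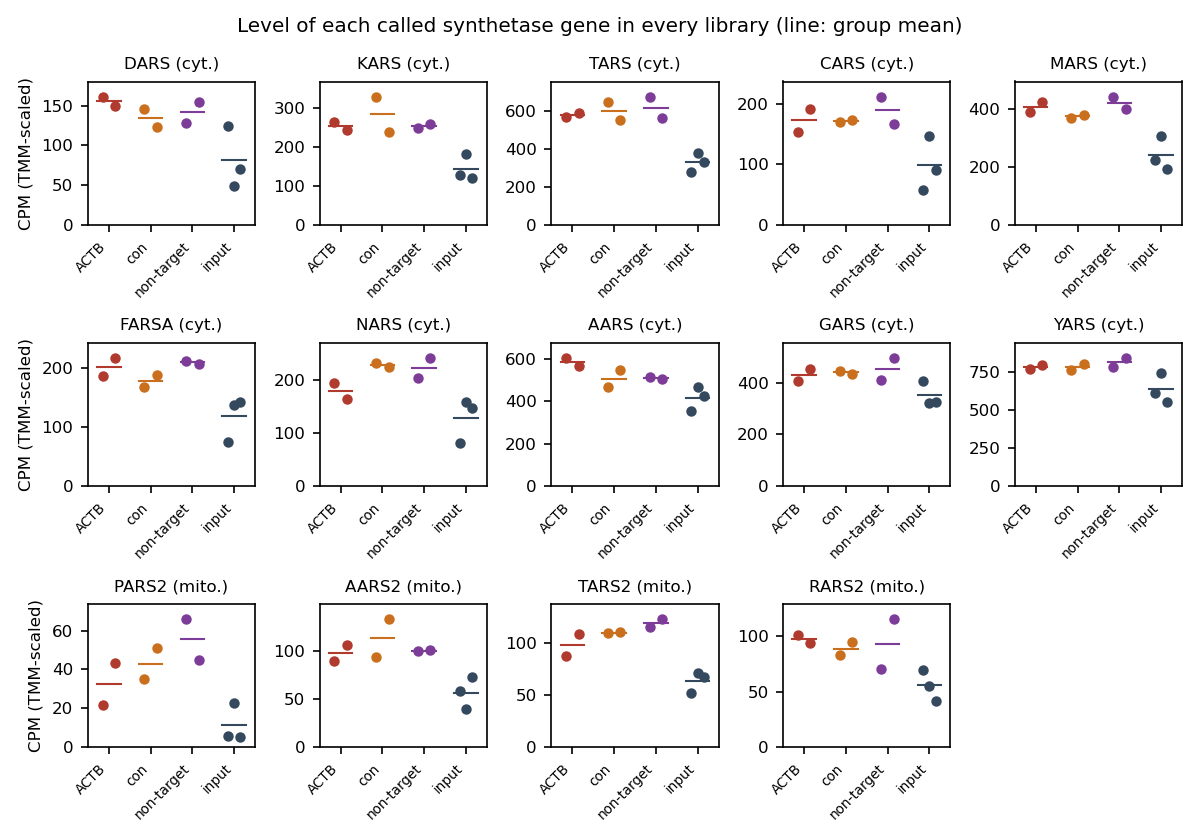
Level of each called synthetase gene in every library, in TMM-scaled CPM, by guide and in the inputs, each point 1 library and each line a group mean. Axes start at 0 and differ between genes. The 10 cytosolic genes (cyt.) and PARS2, AARS2, TARS2 and RARS2 (mito.) have lower means in the inputs. Single libraries overlap for DARS, AARS and PARS2.

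The calls were then counted in the promoter groups shown above and in other groups of members. Beside the counts below, 11.4% of all genes tested were higher, and 21.5% of those averaging at least 50 CPM. Of the 7 cytosolic genes with the CARE motif 6 rose (TARS, CARS, MARS, NARS, AARS and GARS), with IARS the exception. The median log2 fold change of the 7 was 0.67. Of these rises, GARS was called in 5 and AARS in 11 of 19 alternative settings. Of the 9 cytosolic genes whose windows lack it 2 rose (KARS and FARSA), with a median of 0.21. The genes with the motif averaged between 151 (CARS) and 766 CPM (IARS) over all libraries. Those without it averaged between 71.8 (HARS) and 486 CPM (EPRS). Calls are easier for abundant genes, and the part of level in these counts was not tested. DARS and YARS, which also rose, had no window in the table, nor did LARS and VARS. Of 3 called mitochondrial genes with a window, 0 held the CARE motif. The NRF1 motif stood in 1 of 8 called and 2 of 8 uncalled cytosolic genes with a window. The E-box stood in 0 of 8 and 1 of 8. The motifs and the counts were set side by side after the calls were known, and no test of their association was made. Among 12 cytosolic genes reported as ATF4 targets, 7 rose and the median was 0.33. Among the other 8, 3 rose and the median was 0.45. By protein fold, 7 of 10 class II cytosolic enzymes rose (median 0.57) and 3 of 9 class I enzymes rose (median 0.28), with EPRS, which holds both folds, left out. In the mitochondrial class the median was 0.31 for 7 class II genes, of which 3 rose, and 0.56 for 9 class I genes, of which 1 rose. Differences between these groups were not tested.

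Among mitochondrial synthetases PARS2, the prolyl enzyme, had the largest fold. It stood at 21.6 to 66.1 CPM (median 44.2) in the FHY1-M3 libraries, and at 5.78, 22.8 and 5.23 CPM in the inputs. The lowest FHY1-M3 library, ACTB sgRNA replicate 1, lay below input replicate 2, and the 3 inputs together held 18 counts. The log2 fold change was 1.75 (SE 0.49, adjusted p = 0.00983). Its interval ran from 0.75 to 2.75, and it was not called without input replicate 3 (log2 1.42, adjusted p = 0.0557). Without input replicate 2, the highest input, it was called at 2.94 (adjusted p = 0.00298).

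AARS2, the alanyl enzyme, stood at 89.8 to 133 CPM (median 99.9) in the FHY1-M3 libraries, and at 57.8, 39.0 and 73.2 CPM in the inputs. The groups did not overlap, and the log2 fold change was 0.91 (SE 0.27, adjusted p = 0.0138). TARS2, the threonyl enzyme, stood at 87.9 to 124 CPM (median 110.5) in the FHY1-M3 libraries, and at 52.0, 71.5 and 68.0 CPM in the inputs, with a log2 fold change of 0.76 (SE 0.24, adjusted p = 0.0232). RARS2, the arginyl enzyme, stood at 70.4 to 115 CPM (median 94.1) in the FHY1-M3 libraries, and at 69.4, 55.3 and 41.8 CPM in the inputs. It barely cleared both its inputs and the threshold, at 0.75 (SE 0.27, adjusted p = 0.0494), and was called in 5 of 19 alternative settings. AARS2 lost its call without con sgRNA replicate 2 or input replicate 2 (adjusted p = 0.0611 and 0.121). TARS2 lost its call without input replicate 1 (0.0678), ACTB sgRNA replicate 2 (0.0645) and con sgRNA replicate 1 (0.0537) or 2 (0.0581).

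The 12 mitochondrial genes that did not pass had wide intervals. Estimates above 0.5 were found for WARS2 (0.78, SE 0.48), YARS2 (0.72, SE 0.37), EARS2 (0.66, SE 0.33) and MARS2 (0.56, SE 0.46). NARS2 (0.31, SE 0.36), LARS2 (0.28, SE 0.23), IARS2 (0.25, SE 0.18), CARS2 (0.04, SE 0.40) and VARS2 (-0.08, SE 0.24) lay between -0.1 and 0.4. The lowest estimates belonged to FARS2 (-0.67, SE 0.49), HARS2 (-0.94, SE 0.40, adjusted p = 0.0913) and SARS2 (-2.05, SE 1.53). HARS2 stood at 14.5 to 38.2 CPM (median 27.8) in the FHY1-M3 libraries, and at 98.3, 35.8 and 31.4 CPM in the inputs, so that input replicate 1 set most of the difference. It was called lower without input replicate 3 (log2 -1.20, adjusted p = 0.0444), and was at -0.27 without input replicate 1. HARS and HARS2 lie head to head on chromosome 5 with 84 bases between their annotated starts, and as close relatives in sequence they may share reads. SARS2 held 34 counts in the 6 FHY1-M3 libraries and 6 in the inputs, all 6 in input replicate 3, and passed the low-count filter through single libraries.

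The cytosolic and mitochondrial enzymes for the same amino acid were set side by side in 17 pairs, in which EPRS and FARS2 each appear in 2. The mitochondrial gene had the larger log2 fold change in 8 pairs and the cytosolic gene in 9, and the median difference, mitochondrial minus cytosolic, was -0.089. The threonyl pair moved alike, with TARS2 at 0.76 and TARS at 0.85. For proline the mitochondrial PARS2 was called at 1.75, and the fused EPRS was at 0.21 and not called. These differences between genes were not tested.

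**Figure D3:**
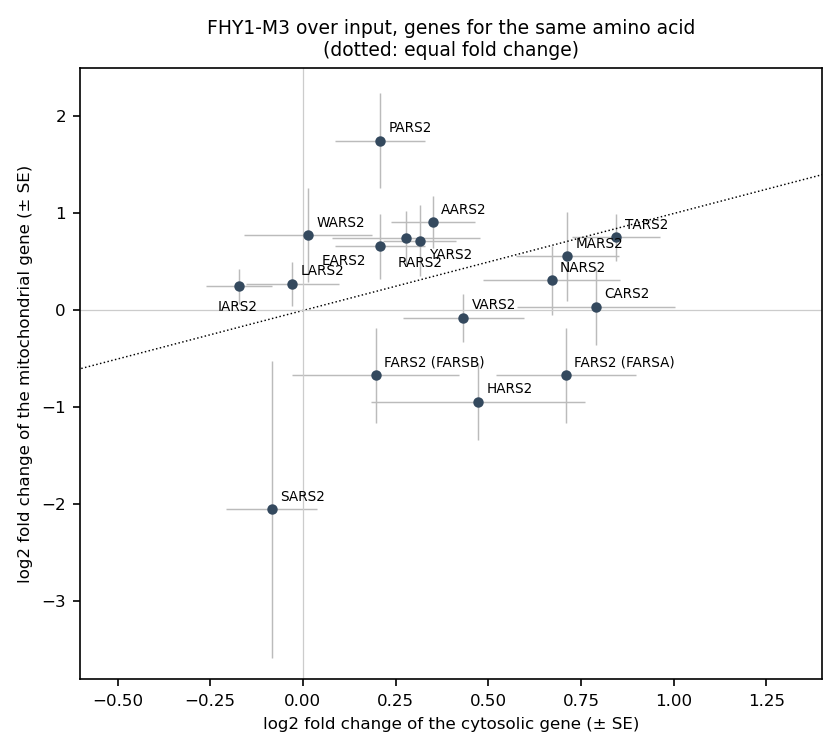
Log2 fold change of the mitochondrial gene (vertical) against that of the cytosolic gene for the same amino acid (horizontal), FHY1-M3 over input, with bars of 1 standard error, for 17 pairs named by the mitochondrial gene. The dotted line marks equal fold change, and the axes differ in scale. The points lie on both sides of it, 8 above and 9 below, with PARS2 at 1.75 where EPRS is at 0.21.

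Summed over each class, cytosolic synthetases took 0.659% to 0.691% of the counts in the FHY1-M3 libraries and 0.492%, 0.568% and 0.509% in the inputs. The mean was 0.672% ± 0.0129 in the FHY1-M3 libraries (SD, n = 6) and 0.523% ± 0.0399 in the inputs (SD, n = 3). The 16 mitochondrial synthetases took 0.101% to 0.116% in the FHY1-M3 libraries and 0.0885%, 0.0775% and 0.0689% in the inputs. The gap was smaller over another denominator. Without mitochondrially encoded and histone genes, the cytosolic mean was 0.677% in the FHY1-M3 libraries and 0.572% in the inputs. The mitochondrial mean was then 0.108% in the FHY1-M3 libraries and 0.0856% in the inputs. Within the synthetase counts, the mitochondrial class made up 13.2% to 14.5% in the FHY1-M3 libraries. It made up 15.2%, 12.0% and 11.9% in the inputs, with exact binomial 95% intervals of 13.1% to 17.6%, 10.7% to 13.5% and 10.1% to 14.0%, computed on counts halved to read pairs, that cover counting error only. The input range holds the whole FHY1-M3 range.

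**Figure D4:**
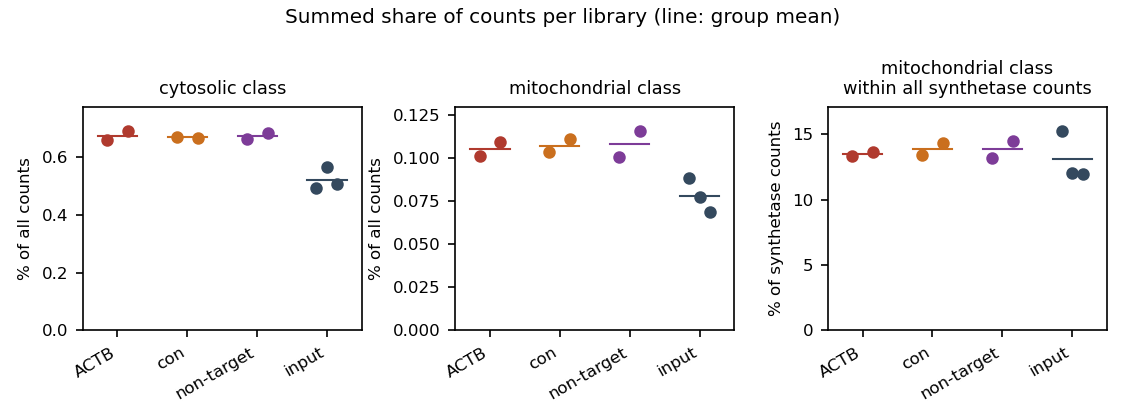
Summed share of counts in each library, by guide and in the inputs, for the cytosolic class, the mitochondrial class (both as percent of all counts) and the mitochondrial class as percent of all synthetase counts. Each point is 1 library, lines are group means, and axes start at 0. Both classes lie lower in the inputs, while the balance between them overlaps.

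Each guide was also set against the same 3 inputs, so the following comparisons share their controls. For the ACTB sgRNA 7 cytosolic members were higher (7.05% of all genes) and 0 of 16 mitochondrial members were called in edgeR and in DESeq2, with 4 at an unadjusted p under 0.05. No member was lower for the ACTB (3.97% of all genes), con (4.22%) or non-target sgRNA (4.57%). For the con sgRNA 4 cytosolic and 2 mitochondrial members were higher (7.22% of all genes), and for the non-target sgRNA 8 and 2 were (8.1% of all genes). TARS was at 0.80, 0.85 and 0.89 for the ACTB, con and non-target sgRNA, KARS at 0.79, 0.95 and 0.80, and MARS at 0.74, 0.62 and 0.78. These 3 genes were called with each guide. PARS2 was at 1.36, 1.76 and 2.14 and was called with the con and non-target sgRNA. With either library of a guide left out, between 1 and 3 cytosolic members were called for that guide, so these counts rest on both libraries.

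Between guides no synthetase gene passed. For ACTB against non-target sgRNA, 0 of 20 cytosolic and 0 of 15 mitochondrial members were called in edgeR and in DESeq2, beside 0.25% of all 12808 genes in edgeR. At an unadjusted p under 0.05 there were 2 cytosolic and 1 mitochondrial members, AARS, NARS and PARS2, beside 7.82% of all genes. AARS stood at 604 and 564 CPM with the ACTB sgRNA, against 515 and 503 CPM for non-target libraries (log2 0.20, SE 0.10, adjusted p = 0.622). PARS2 stood at 21.6 and 43.4 CPM with the ACTB sgRNA, against 66.1 and 45.1 CPM for non-target libraries (log2 -0.78, SE 0.36, adjusted p = 0.605). The 2 libraries of each guide did not overlap with those of the other for either gene, as for 35.1% of all genes. Over the 20 cytosolic members the estimates lay between -0.31 and 0.23, and no 95% interval reached beyond folds of 0.651 and 1.64. Over the 15 mitochondrial members the intervals reached folds of 0.351 and 2.76.

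For ACTB against con sgRNA, 0 of 20 and 0 of 15 members were called in edgeR and in DESeq2 (0.0312% of all genes in edgeR), with 2 and 1 at an unadjusted p under 0.05 (3.86% of all genes). NARS stood at 194 and 164 CPM with the ACTB sgRNA, against 232 and 224 CPM for con libraries (log2 -0.35, SE 0.15, adjusted p = 1). IARS2 stood at 216 and 217 CPM with the ACTB sgRNA, against 153 and 184 CPM for con libraries (log2 0.37, SE 0.17, adjusted p = 1). Neither gene's libraries overlapped, as for 34.2% of all genes. For con against non-target sgRNA, 0 of 20 and 0 of 15 were called in both tools (0.172% of all genes in edgeR), and 0 and 0 had an unadjusted p under 0.05 (5.25% of all genes). The members with the smallest p in each class were LARS (log2 0.19, SE 0.11) and NARS2 (log2 0.47, SE 0.34). In these 2 comparisons the cytosolic intervals stayed within folds of 0.636 and 1.70, and the mitochondrial ones within 0.241 and 3.26.

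**Figure D5:**
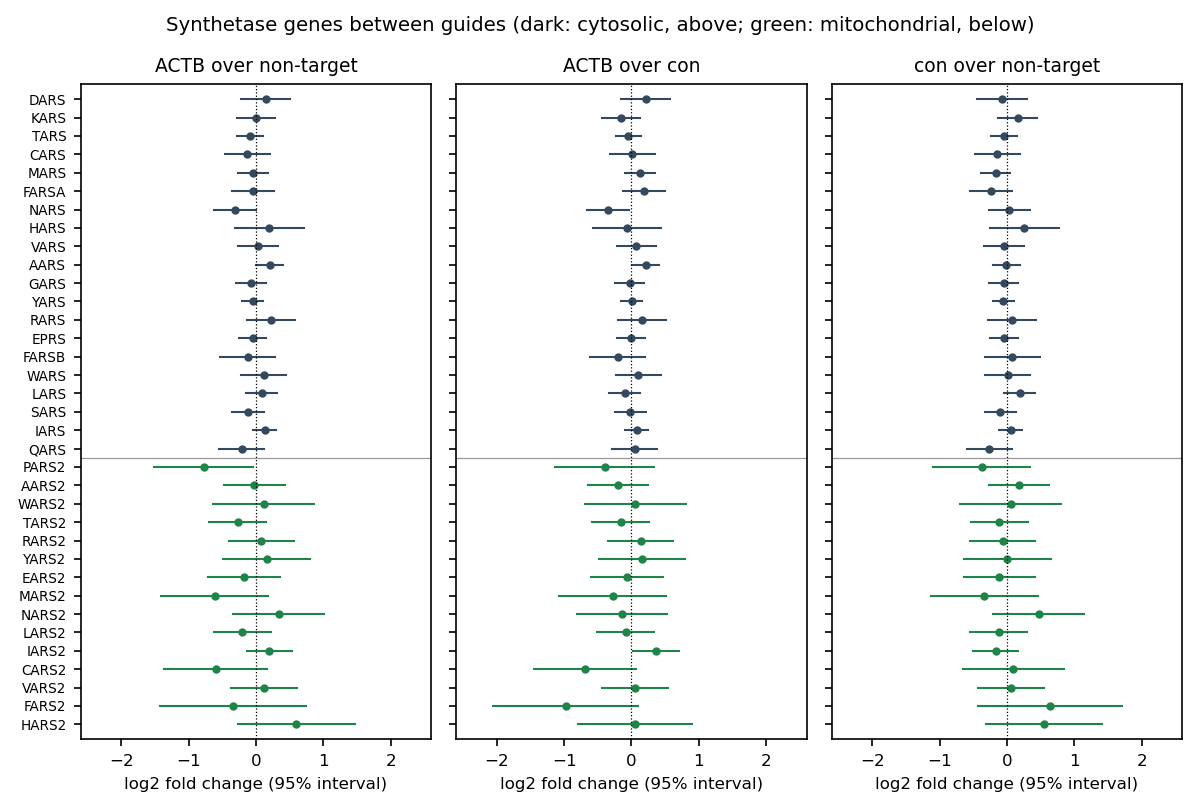
Log2 fold change of 20 cytosolic (dark, upper rows) and 15 mitochondrial (green, lower rows) synthetase genes in the 3 comparisons between guides, with 95% intervals from the edgeR fit of the 6 FHY1-M3 libraries. SARS2 did not pass the low-count filter. No member was called, and the mitochondrial intervals are the wider ones.

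Other genes of tRNA charging, from a list of 20 symbols of which the table holds 18, were read from the same fits. Against the inputs 4 of 18 rose (SEPHS2, SEPHS1, TARSL2 and EEF1E1) and 0 fell, beside 11.4% higher and 8.6% lower over all genes. The median was 0.49 with EEF1E1 included. Without it the middle estimate was that of QRSL1, at 0.28, beside a median of 0.04 over all genes. Between guides 0 of 17 were called in any edgeR comparison, beside 0.0312% to 0.25% of all genes. At an unadjusted p under 0.05 there were 1 to 2, beside 3.86% to 7.82% of all genes. SEPHS2, which makes the selenium donor for selenocysteine, was at 1.32 (SE 0.18, adjusted p = 5.7e-07), and its relative SEPHS1 at 0.87 (SE 0.26, adjusted p = 0.0137). TARSL2, a further cytosolic threonyl enzyme outside the symbol rule, was at 1.47 (SE 0.39, adjusted p = 0.00572). EEF1E1, a scaffold protein of the multisynthetase complex also called AIMP3, ranged over 6.76 to 14.4 CPM with FHY1-M3 and was at 0 in all 3 inputs. It passed the low-count filter through the FHY1-M3 libraries alone, so its call, 1 of the 4, is given with no fold or p. The other scaffold genes did not pass, with AIMP2 at 1.18 (SE 0.44, adjusted p = 0.0529) and AIMP1 at -0.26 (SE 0.31).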

How the data were processed

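Per the values, the deposited table holds raw whole-number counts per gene symbol in 9 libraries. Tools in the submitters' processing notes are cutadapt 4.3, STAR 2.7.10b and deepTools, with hg38 as the build, and no roles are stated. How reads were assigned to genes and strands, and with which annotation, is not given in the sources used here. Replicates differed by more than sampling noise (chi-square per degree of freedom 1.85 to 5.18 on halved counts).

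Counts were fitted by edgeR 4.0.16 under R 4.3.3 with its quasi-likelihood F test (filterByExpr by group, TMM scaling, both directions), with Benjamini-Hochberg adjustment over all genes and a threshold of 0.05. All 9 libraries shared the fit against input, as the mean of the 3 guide groups minus input, and the 6 sgRNA libraries shared the fit between guides. The SE is the log2 fold change divided by the root of F, and CPM use the effective library sizes of the first fit. The test was tried on simulated counts. Members called against input were named with values in every library, up to 8 per class and direction, and each guide comparison named the member with the smallest p per class. A further gene that meets the symbol rule is not reported here and enters no class count, median or share. Members and lists were chosen with earlier results of these data known. Of the 36 symbols, 18 matched the RefSeq table directly and 18 by an older name. Alternatives covered scaling, filters, DESeq2 1.42.0, a replicate block, halved counts, thinning and leaving out each library.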

Additional observations from a re-analysis of the deposited data

Results flagged for a closer look

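In the 6 FHY1-M3 libraries the KARS level of con sgRNA replicate 1 stood apart, at 328 CPM, with the other 5 between 238 and 264 CPM. Its gap to the next library was 0.717 of the whole range, above Dixon's 95% value of 0.625 for 6 values. Of 39 sets of 6 values examined (36 members and 3 class shares) this was the 1 so marked, and chance marks about 1 in 20. KARS was called higher against input in all 9 fits that left out a library, that one included.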

How the results depend on the processing

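Each result of the FHY1-M3 libraries together against input was recomputed under 19 alternatives, of which 9 left out a library. The fit with 2 groups was made for this comparison alone. SARS2 had a result in 14 of the 19. TARS, KARS, MARS and FARSA kept their calls in all 19, DARS, NARS and PARS2 in 18, CARS and AARS2 in 17, and TARS2 in 14. With the FHY1-M3 libraries thinned to the mean input depth, 6 of 20 cytosolic and 2 of 15 tested mitochondrial members were higher. The cytosolic median was then 0.25. Over all genes 2142 were called there in either direction, against 2677 in the main fit, and fewer genes were tested. Whether members were called more often than all genes in that setting was not tested. IARS gave 1 cytosolic lower call under median-ratio factors, a minimum mean of 10 CPM and DESeq2. With single libraries left out, 7 to 9 cytosolic members were higher and 0 to 1 lower, 1 to 4 mitochondrial members were higher and 0 to 1 lower, and the medians were 0.29 to 0.45 (cytosolic) and 0.26 to 0.48 (mitochondrial, 0.43 with all libraries). For single guides, leaving out a library gave 2 to 8 cytosolic and 0 to 1 mitochondrial calls for the ACTB sgRNA. It gave 1 to 7 and 0 to 2 for con, and 2 to 7 and 0 to 4 for non-target sgRNA. Thinning gave 3 cytosolic calls for ACTB, 2 cytosolic and 0 mitochondrial for con, and 4 and 1 for non-target sgRNA. Library-size scaling gave 7 cytosolic calls for con sgRNA, and median-ratio factors 1 mitochondrial call for non-target sgRNA. The cytosolic input share without mitochondrially encoded and histone genes was 0.572%. Fewer reads or libraries are part of the thinned and left-out settings, and otherwise the cause was not tested.

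No pairing of the libraries by replicate number was seen, although this check cannot exclude a shared culture or batch. Deviations of same-numbered libraries had correlations between -0.0123 and 0.0200 over all genes. With a replicate block the mitochondrial calls were 1 for ACTB, 1 for con and 5 for non-target sgRNA. The block also called EPRS (0.40), EARS2 (adjusted p = 0.0278) and HARS2 (-1.25, the 1 mitochondrial lower call), and lost YARS, GARS and RARS2.

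Signs changed only for members that were not called. Under median-ratio factors, a minimum mean of 10 CPM, DESeq2 and thinning, WARS was at -0.064, -0.068, -0.065 and -0.11, and CARS2 at -0.043, -0.044, -0.047 and -0.27. WARS was at -0.025 with halved counts and -0.00059 with 2 groups. LARS was at 0.026 with library-size scaling and 0.040 with the block, where CARS2 was at -0.21 and SARS2 at 4.74, and thinning put MARS2 at -0.092. With single libraries left out, SARS ran from -0.19 to 0.028, FARSB from -0.033 to 0.50, QARS from -0.53 to 0.16 and LARS from -0.17 to 0.062. WARS ran from -0.12 to 0.20, VARS2 from -0.23 to 0.14 and CARS2 from -0.22 to 0.47. Counts over all genes between guides moved beyond 1.5 times in several settings, for ACTB against non-target sgRNA from 32 to between 16 (all 9 libraries in the fit) and 74 (DESeq2), for con against non-target from 22 to between 10 and 38, and for ACTB against con from 4 to between 0 and 7. Against input the counts over all genes with a library left out were 630 to 1581 for ACTB, 608 to 1640 for con and 735 to 1800 for non-target sgRNA. A guide left with 1 library was assumed to vary like the other groups. The inputs' depth limits what can be seen of the mitochondrial class.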
